A study of Mus musculus with 14 samples.

Results

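The effect of a RIG-I agonist was compared between CT26 and MC38, both mouse colon carcinoma lines, as a difference of effects: the log2 change from control agonist to RIG-I agonist in CT26 minus the same change in MC38. The comparison took 10 of the 14 libraries of the study, chosen by the line and agonist given in their titles. CT26 is a colorectal carcinoma line of BALB/c origin and had 3 libraries with the control agonist and 3 with the RIG-I agonist. MC38 is a colon adenocarcinoma line of C57BL6 origin and had 2 libraries with each. Cells were seeded at 100000 per well, per the labels, and were exposed to 0.5 ug/ml of either agonist for 24 h, CT26 in RPMI and MC38 in DMEM, each with fetal bovine serum. The other 4 libraries were from E0771, a mammary carcinoma line of C57BL6 origin, and were no part of the comparison. Neither agonist was named further. Every effect is relative to the control agonist, as untreated cells were not analysed here.

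RIG-I, encoded by Ddx58, is a cytosolic helicase that binds viral RNA and signals through the mitochondrial adaptor MAVS. Signalling from MAVS activates IRF3, IRF7 and NF-kB, which switch on type I interferon genes, chemokine genes and other inflammatory genes. Secreted interferon then acts through its receptor and the JAK and STAT proteins on a wide set of interferon-stimulated genes, among them antiviral effectors and the MHC class I antigen presentation machinery.

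The promoter windows of 5 genes on which the results turn are shown, 250 bases before to 50 after the annotated start, 5′ to 3′, from RefSeq on GRCm38.p6. Cxcl10 and Ifnb1 are direct outputs of the pathway: Cxcl10 rose more in CT26 yet reached the higher level in MC38, and Ifnb1 reached the higher level in CT26. Fos and Dusp1 rose in CT26 and fell in MC38, and Angptl6 fell in CT26 and rose in MC38. Capitals mark matches on either strand to a searched motif: the interferon-stimulated response element, the kappaB consensus of NF-kB, the cyclic AMP response element TGACGTCA, the AP-1 element TGANTCA, the CArG box of serum response factor and the C/EBP-ATF element TGATGNAA.
Cxcl10, chr5:92348840-92349139, minus strand: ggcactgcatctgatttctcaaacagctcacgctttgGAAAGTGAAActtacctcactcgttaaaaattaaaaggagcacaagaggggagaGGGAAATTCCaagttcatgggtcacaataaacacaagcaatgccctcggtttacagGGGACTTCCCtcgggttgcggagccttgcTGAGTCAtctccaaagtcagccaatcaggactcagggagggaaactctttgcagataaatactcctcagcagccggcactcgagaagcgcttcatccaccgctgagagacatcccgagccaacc
Ifnb1, chr4:88522745-88523044, minus strand: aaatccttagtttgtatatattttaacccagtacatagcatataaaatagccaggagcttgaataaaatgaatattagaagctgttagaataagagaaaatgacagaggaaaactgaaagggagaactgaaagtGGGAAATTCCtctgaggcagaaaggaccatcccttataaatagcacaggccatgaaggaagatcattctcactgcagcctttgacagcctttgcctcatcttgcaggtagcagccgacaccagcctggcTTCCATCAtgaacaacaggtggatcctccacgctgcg
Fos, chr12:85473640-85473939, plus strand: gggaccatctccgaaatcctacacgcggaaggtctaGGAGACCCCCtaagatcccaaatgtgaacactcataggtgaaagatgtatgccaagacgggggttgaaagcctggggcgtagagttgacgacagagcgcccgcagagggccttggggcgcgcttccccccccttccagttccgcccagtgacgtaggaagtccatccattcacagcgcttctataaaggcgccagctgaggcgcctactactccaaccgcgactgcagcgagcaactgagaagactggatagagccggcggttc
Dusp1, chr17:26508423-26508722, minus strand: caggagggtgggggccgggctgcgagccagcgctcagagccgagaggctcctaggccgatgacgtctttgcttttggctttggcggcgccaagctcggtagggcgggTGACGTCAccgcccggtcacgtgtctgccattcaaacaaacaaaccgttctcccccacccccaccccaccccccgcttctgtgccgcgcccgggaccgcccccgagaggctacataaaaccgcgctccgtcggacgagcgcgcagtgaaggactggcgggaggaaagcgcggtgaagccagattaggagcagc
Angptl6, chr9:20879661-20879960, minus strand: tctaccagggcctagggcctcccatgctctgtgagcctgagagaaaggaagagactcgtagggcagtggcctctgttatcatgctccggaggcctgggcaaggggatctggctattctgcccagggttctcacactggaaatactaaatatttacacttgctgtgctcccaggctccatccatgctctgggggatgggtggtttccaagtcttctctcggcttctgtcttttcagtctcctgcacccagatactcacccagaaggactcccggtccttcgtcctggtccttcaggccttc
The Cxcl10 window held 1 interferon-stimulated response element, 2 kappaB matches and 1 AP-1 element, and the Ifnb1 window held 1 kappaB match and 1 C/EBP-ATF element. The Fos window held 1 kappaB match, the Dusp1 window 1 cyclic AMP response element, and the Angptl6 window none of these letters. Of 32851 windows of this length, 3.44% held the interferon-stimulated response element, 4.51% the kappaB consensus, 1.79% the cyclic AMP response element, 7.81% the AP-1 element, 1.63% the CArG box and 3.97% the C/EBP-ATF element. A match describes the letters only.

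The libraries held 32826742 to 40564102 estimated counts in CT26 and 12347361 to 18964563 in MC38. Levels are given in CPM, the count scaled to a common library size. A count of 0 allowed up to 0.0772 to 0.0892 CPM in a CT26 library and 0.156 to 0.238 in an MC38 library, for counting error only. Replicates differed by more than sampling noise in each group, and nothing in the labels stated that they came from separate cultures, so p-values measure the spread between these libraries. The biological coefficient of variation was 0.102 in CT26 alone and 0.0304 in MC38 alone, against 0.0868 in the joint fit. Line, strain, medium and depth cannot be told apart in the comparison. The file columns of MC38 also share a prefix that those of CT26 lack, and its meaning is not given in the sources used here. Of 12 colon epithelial markers, Epcam and Cdx1 were at 0 in every library of both lines, and Krt18, Cdx2 and Cldn7 were also at 0 in MC38. The summed level of these markers was 35.6 to 46 CPM in CT26 and 0.622 to 1.31 in MC38. Leukocyte markers summed to 3.7 to 7.2 CPM over all 10 libraries. Fibroblast markers summed to 98.2 to 132 CPM in CT26 and 103 to 141 in MC38, above the colon epithelial sum in both lines. Endothelial markers summed to 1.61 to 4.1 CPM in CT26 and 11.3 to 15.8 in MC38.

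The RIG-I agonist raised interferon, chemokine and antiviral genes in both lines, and the size of the effect differed for some of them. Of 15642 genes tested, the difference of effects was higher in CT26 for 910 and lower for 1626 at an adjusted p under 0.05 (edgeR quasi-likelihood F test with Benjamini-Hochberg adjustment, as for every adjusted p given here). A value with an SE and no other name is this difference on the log2 scale, CT26 minus MC38. These are 5.82% and 10.4% of the genes tested. At a difference of at least 2-fold the counts were 437 higher, or 2.79%, and 91 lower, or 0.582%. In this fit the differences of at least 2-fold thus lay mostly on the side of CT26, while those under 2-fold lay mostly on the other side. At 1 CPM or more in both lines 700 differences were called higher and 1588 lower. A larger part of the higher ones was thus under 1 CPM in a line, where fitted fold changes rest on few counts. The counts at 2-fold were not repeated at that level or under other scalings.

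Within CT26, 2323 genes rose, or 14.9%, and 3860 fell, or 24.7%. Within MC38, 1492 rose, or 9.54%, and 1091 fell, or 6.97%. Counts within the gene lists below are to be read beside these shares and those of the difference. Genes that rose in both lines numbered 715, which is 30.8% of those in CT26 and 47.9% of those in MC38. Genes that fell in both numbered 671, or 17.4% and 61.5%. Of the 715 genes that rose in both, the rise was larger in CT26 for 125 and smaller for 77, and the difference was not called for 513.

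The count of lower differences depended on scaling and on single libraries. The median difference over all genes was -0.06 on the log2 scale with TMM scaling and 0.05 with upper-quartile scaling, which called 694 genes lower, so that 65% of the called differences were higher in CT26 against 35.9%. Of the 910 higher and 1626 lower genes, 909 and 694 were called under both scalings. The lower count was 2477 without CT26 control 1, 781 without CT26 control 2, 593 without MC38 control 1, 883 without MC38 control 2 and 464 without MC38 RIG-I 2. The higher count was 582 without MC38 control 2 and 591 without MC38 RIG-I 1. Fitting all 14 libraries, with the wider spread of E0771, left 290 genes higher and 267 lower. Within CT26, 2356 genes fell without CT26 control 2. Within MC38, leaving out control 1, control 2, RIG-I 1 or RIG-I 2 in turn left 868, 823, 965 and 754 genes that rose and 606, 568, 547 and 642 that fell.

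**Figure D1:**
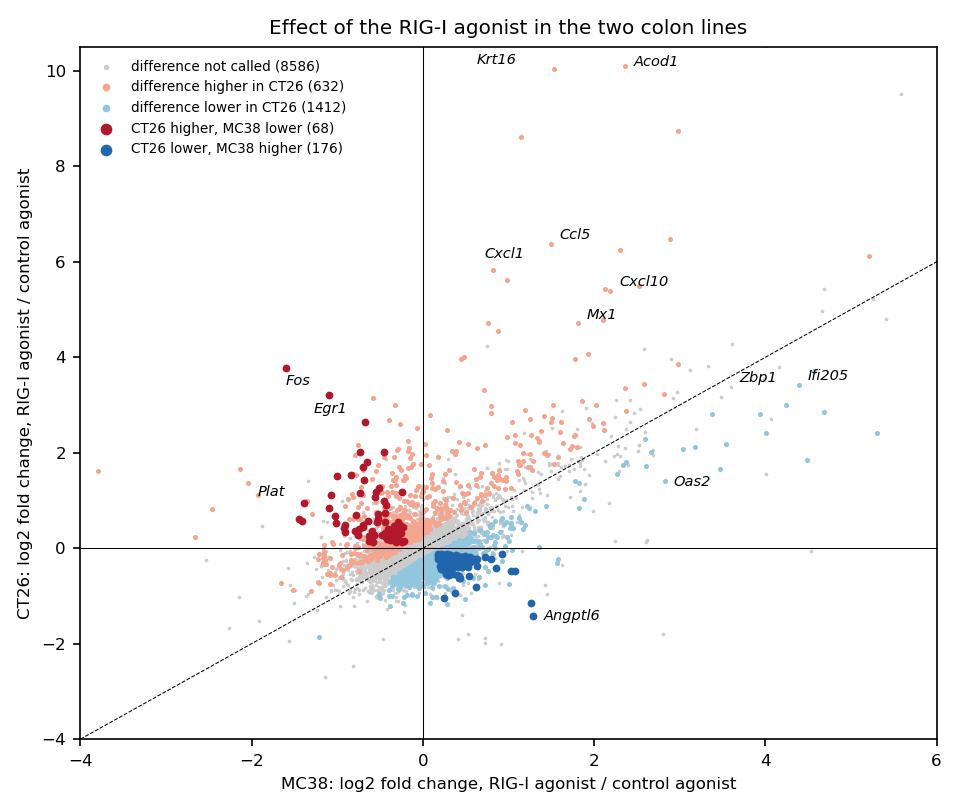
Effect of the RIG-I agonist in MC38 (horizontal axis) and CT26 (vertical axis), log2 fold change against control agonist, for genes at 1 CPM or more in both lines; 10862 genes are drawn and 12 lie outside the axes. The dashed line marks equal effects; dark red and dark blue points are the 68 and 176 genes called in opposite directions, and the chemokine genes Ccl5, Cxcl1 and Cxcl10 lie far above the dashed line.

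Interferon genes themselves were near 0 with the control agonist in both lines and reached much higher levels in CT26. Ifnb1, which encodes interferon beta, was at 0.0574, 0.104 and 0.27 CPM in the CT26 control libraries and at 106, 109 and 112 with the RIG-I agonist. In MC38 it was at 0 and 0.149 and then 3.33 and 3.58. All CT26 libraries with the agonist thus stood above both MC38 ones, and the level with the agonist was 31.3 times as high in CT26 (log2 ratio 4.97 ± 0.15 SE, adjusted p = 2.77e-13). The difference of its effects was 3.92 ± 1.48 and was not called (adjusted p = 0.0861), with 2 counts in the MC38 controls together against 111 with the agonist, a ratio of 51.2 (exact 95% interval 13.8 to 428, counting error only). It ranged from -0.19 to 5.05 over the alternatives tried and was called in 4 of 19 of them: by DESeq2, by limma voom with the spread per line, without CT26 control 3 and without MC38 control 1. Ifna4, one of the interferon alpha genes, whose shared sequences make single members uncertain, reached 20.1, 19.2 and 21.3 CPM in CT26 and 1.11 and 1.19 in MC38. Its difference was 6.54 ± 1.43 (adjusted p = 0.00563), and the call was lost without MC38 control 1. Of 20 interferon genes listed, 4 passed the filter on low counts, and the difference was called for 1 of them.

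Of 18 RNA sensing genes tested, 12 rose in each line, against 14.9% of all genes tested in CT26 and 9.54% in MC38. Ddx58 and Ifih1 rose more in CT26. Ddx58 was at 146, 141 and 159 CPM in the CT26 controls and 398, 375 and 379 with the agonist. In MC38 it was at 216 and 215 and then 374 and 377, so that MC38 started higher, and the ratio of the levels with the agonist was not called (log2 ratio of CT26 to MC38 0.03, adjusted p = 0.625). Its difference of effects was 0.57 ± 0.09 (adjusted p = 0.000309), a call lost in the fit of 14 libraries only. Ifih1, which encodes the related sensor MDA5, rose 4.58-fold in CT26 and 2.1-fold in MC38, a difference of 1.12 ± 0.08 (adjusted p = 1.08e-07), and ended at 253 ± 6.67 CPM in CT26 and 150.3 ± 6.88 in MC38 (SD, n = 3 and n = 2 libraries). Dhx58, which encodes the regulator LGP2, had a difference of -0.30 ± 0.09 (adjusted p = 0.0318), and this call was lost in 14 of 19 alternatives. Tlr3, the endosomal sensor of double-stranded RNA, rose more in CT26 (0.83 ± 0.07, adjusted p = 1.56e-06). Over this list the difference was higher for 5 and lower for 3, beside 5.82% and 10.4% of all genes tested. The median difference was 0.05 against -0.06 over all genes tested. Of the lower calls, 1 was left without any 1 library other than CT26 control 1 (4) and CT26 control 3 (2), and with 14 libraries 2 were higher and 1 lower.

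Of 19 receptor, JAK, STAT and IRF genes tested, 12 rose in CT26 and 11 in MC38, against 14.9% and 9.54% of all genes tested. Stat2, a subunit of the ISGF3 complex that carries the interferon signal, rose 4.47-fold in CT26 and 2.19-fold in MC38 (1.03 ± 0.11, adjusted p = 9.47e-06). Irf1, an interferon-induced transcription factor, had a difference of 0.65 ± 0.08 (adjusted p = 3.24e-05). Irf5, another IRF, rose from 0.888 to 14.9 CPM in CT26 and from 0.886 to 3.53 in MC38 (2.13 ± 0.37, adjusted p = 0.00109), a call lost without MC38 control 1 and with 14 libraries. Irf7, which amplifies interferon alpha production, was at 184, 192 and 183 CPM in the CT26 controls and 988, 1037 and 1012 with the agonist. In MC38 it was at 25.6 and 23.7 and then 153 and 145. The level of Irf7 was therefore 6.78 times as high in CT26 with the agonist (log2 ratio 2.76 ± 0.07, adjusted p = 7.74e-16), while its difference of effects was -0.15 ± 0.09 and was not called (adjusted p = 0.24). Over this list the difference was higher for 7 and lower for 3, beside 5.82% and 10.4% of all genes tested. The median was 0.29, and with 14 libraries the difference was higher for 3 and lower for 0. The lower count was 0 without CT26 control 2, CT26 RIG-I 1, MC38 RIG-I 1 or MC38 RIG-I 2, and 1 without CT26 control 3, CT26 RIG-I 2, MC38 control 1 or MC38 control 2.

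Antiviral effector genes rose in nearly equal numbers in both lines. Of 60 tested, 57 rose in CT26 and 55 in MC38, against 14.9% and 9.54% of all genes tested. The difference was higher in CT26 for 28 and lower for 7, beside 5.82% and 10.4% of all genes tested, with a median of 0.27. In the fit of 14 libraries it was higher for 16 and lower for 3. Mx1, a dynamin-like antiviral GTPase, was at 8.43, 10.2 and 9.55 CPM in the CT26 controls and 249, 251 and 241 with the agonist, and at 12 and 14.6 and then 47 and 45.6 in MC38. The lines overlapped in neither group, and the difference was 2.90 ± 0.12 (adjusted p = 1.44e-10). Ifit1, which binds foreign 5′ ends of RNA, rose 8.04-fold and 4.08-fold (0.98 ± 0.12, adjusted p = 3.65e-05). Isg15, a ubiquitin-like modifier, rose 4.25-fold and 3.3-fold (0.37 ± 0.11, adjusted p = 0.0326). That call was lost on leaving out either of CT26 RIG-I 1 and CT26 RIG-I 2 or any of the MC38 libraries, and with 14 libraries. Ifit1bl1, a less studied member of the IFIT family, rose from 0.774 to 35.2 CPM in CT26 and from 0.505 to 2.89 in MC38 (2.97 ± 0.41, adjusted p = 0.000153).

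Oas2 went the other way among the antiviral genes. Oas2, a synthetase of the 2′-5′ oligoadenylates that activate RNase L, was at 82.3, 76.1 and 75.6 CPM in the CT26 controls and 217, 200.2 and 200.1 with the agonist. MC38 had 19.8 and 21.7 and then 143 and 150.5, a larger rise from a lower start, and the difference was -1.42 ± 0.09 (adjusted p = 5.06e-08). The level with the agonist was still higher in CT26 (log2 ratio 0.49 ± 0.06, adjusted p = 1.12e-06). Zbp1, which binds left-handed nucleic acid and can start necroptosis, rose 10.4-fold and 12.1-fold, and its difference of -0.21 ± 0.09 was not called (adjusted p = 0.12) except without CT26 control 1.

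Of 19 interferon-inducible GTPases tested, 18 rose in CT26 and 16 in MC38, and the difference was higher for 8 and lower for 3 with a median of 0.43 (3 and 0 with 14 libraries, and 1 lower without MC38 control 1 or MC38 RIG-I 2). Gbp2, a guanylate-binding protein of cell-autonomous defence, rose from 60.4 ± 4.55 to 622 ± 13 CPM in CT26 and from 58.7 ± 0.285 to 302 ± 3.27 in MC38 (the effects were 2-fold apart, adjusted p = 1.94e-06). Tgtp2, of the Tgtp family, had a difference of -0.96 ± 0.23 (adjusted p = 0.0164). This call was lost with 14 libraries, with CT26 thinned to the depth of MC38, and without MC38 control 1, MC38 RIG-I 1 or MC38 RIG-I 2. Single members of both families share reads and are uncertain. Among cytosolic DNA sensing genes, Trex1, an exonuclease that removes cytosolic DNA, rose more in CT26 (1.46 ± 0.16, adjusted p = 1.65e-05). Ifi203, of the Ifi200 family, rose more in MC38 (-0.58 ± 0.11, adjusted p = 0.00187). Over the 11 tested members 3 were higher and 2 lower, and the list's median changed sign with the scaling, from -0.04 to 0.07.

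Chemokine genes included some of the wider gaps between the effects. Of 17 tested, the difference was higher in CT26 for 8 and lower for 0, beside 5.82% and 10.4% of all genes tested. The median was 2.15, and it was 1.65 to 3.62 without 1 library at a time. The other 9 were not called. Cxcl10, a ligand of CXCR3 that draws activated T cells and NK cells, was at 11.4, 11.7 and 11.6 CPM in the CT26 controls and 482, 479 and 496 with the agonist. The MC38 libraries had 255 and 254 in the controls and 1154 and 1172 with the agonist. MC38 thus held more Cxcl10 in each group, and CT26 showed the larger rise: 42-fold against 4.56-fold, a difference of 3.20 ± 0.08 (adjusted p = 2.31e-13). With the agonist its log2 ratio of CT26 to MC38 was -1.26 ± 0.05 (adjusted p = 8.23e-13).

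Ccl5, a chemokine that attracts T cells, was at 2.18, 1.8 and 1.48 CPM in the CT26 controls and 149, 148 and 155 with the agonist, and at 20.9 and 17.8 and then 59.2 and 50.5 in MC38. The order of the lines was thus reversed with the agonist, with a difference of 4.88 ± 0.16 (adjusted p = 6.66e-12) and an agonist level that was 2.76 times as high in CT26. Cxcl1, which attracts neutrophils, showed the same crossing, from 1.98, 2.52 and 2 to 117, 129 and 123 CPM in CT26 and from 26.4 and 23.3 to 45.8 and 42.1 in MC38 (the effects were 32.1-fold apart, adjusted p = 5.77e-13). Ccl4, a chemokine of the same CC family, rose from 0.0994 to 44.3 CPM in CT26 and from 0.579 to 4.58 in MC38 (5.75 ± 0.51, adjusted p = 1.39e-06). Ccl2, which recruits monocytes, kept its order: it was at 0.344, 0.703 and 0.486 and then 11.1, 12.8 and 12.6 CPM in CT26, and at 254 ± 6.07 and then 467 ± 16.2 in MC38 (SD, n = 2 libraries). Its difference was 3.67 ± 0.17 (adjusted p = 4.32e-10), and its level with the agonist was far lower in CT26 (log2 ratio -5.26 ± 0.08, adjusted p = 1.26e-17). Cxcl9, the other main CXCR3 ligand, rose in both lines and reached 0.159, 0.206 and 0.238 CPM in CT26 and 5.63 and 6.38 in MC38, with a difference of -1.95 ± 0.94 that was not called (adjusted p = 0.189).

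Among cytokine and growth factor genes, 5 of 22 tested were higher in the difference and 3 lower, against 5.82% and 10.4% of all genes tested. The median was 0.34. The higher count was 5 without each library in turn and with 14 libraries, while the lower count was 0 to 3 and 0, and it was 3 only without CT26 control 1. Il6, an inflammatory cytokine, was at 0.287, 0.208 and 0.189 CPM in the CT26 controls and 16.9, 18 and 17.7 with the agonist. The MC38 values were 0.313 and 0.372 and then 1.67 and 1.71, so that the level with the agonist was 10.3 times as high in CT26 (difference of effects 3.94 ± 0.44, adjusted p = 1.64e-05). Tnfsf10, the death ligand TRAIL, rose from 0.616 ± 0.0272 to 17.1 ± 0.835 CPM in CT26 and from 6.97 ± 0.0643 to 29.8 ± 3.7 in MC38 (2.69 ± 0.17, adjusted p = 4.31e-08). Il33, a nuclear alarmin, rose in CT26 from 0.0904 to 2.41 CPM and was at 0.438 and 0.372 and then 0.317 and 0.259 in MC38, where it was not called (5.18 ± 0.74, adjusted p = 0.000202). Il15ra, which presents IL-15, rose 10.4-fold and 1.63-fold but reached 0.989 CPM in CT26 against 24.7 in MC38.

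Of 23 NF-kB subunits, inhibitors and feedback genes, 7 were higher in the difference and 2 lower, against 5.82% and 10.4% of all genes tested. The median was 0.01, and with 14 libraries 2 were higher and 1 lower. Without CT26 control 1 the lower count was 4, and it was 1 without CT26 control 2, CT26 RIG-I 1, CT26 RIG-I 2, MC38 control 1, MC38 RIG-I 1 or MC38 RIG-I 2. Nfkbia, which encodes the inhibitor IkBa and is itself a target of NF-kB, was at 21.9, 25.5 and 23.5 CPM in the CT26 controls and 94.1, 99.9 and 96.8 with the agonist, and at 41.1 and 39.7 and then 51 and 51.2 in MC38. CT26 started below MC38 and ended above it, with a difference of 1.70 ± 0.10 (adjusted p = 1.07e-08). Traf1, an adaptor of TNF receptors, rose 4.28-fold and 1.55-fold (1.47 ± 0.12, adjusted p = 7.7e-07).

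Genes of MHC class I presentation rose more often by a larger factor in CT26, from control levels with a median log2 ratio of CT26 to MC38 of -0.32. Of 27 tested, the difference was higher for 15 and lower for 1 with a median of 0.43, while the level with the agonist was higher in CT26 for 13 and lower for 14. Over all genes tested the level was higher in CT26 for 39.1% and lower for 38.1%. The higher count was 10 to 19 without 1 library at a time, but with 14 libraries 4 were higher and 0 lower, and the calls of Tap1 and H2-K1 were lost there (adjusted p = 0.119 and 0.387). Tap1, a subunit of the peptide transporter, was at 72.5, 67.5 and 61.7 CPM in the CT26 controls and 261, 261 and 254 with the agonist, and at 279 and 285 and then 772 and 763 in MC38. The CT26 libraries with the agonist thus lay below the MC38 controls, although the difference was 0.50 ± 0.09 (adjusted p = 0.00146). Tapbp, the tapasin that loads peptides, rose 4.44-fold in CT26 and 1.65-fold in MC38 (1.43 ± 0.09, adjusted p = 2.09e-08), and its log2 ratio of levels with the agonist was -1.01 ± 0.06. H2-K1, a classical heavy chain, rose from 446 ± 8.9 to 1097 ± 16.1 CPM in CT26 and from 1064 ± 27 to 1890.0 ± 45.4 in MC38 (0.47 ± 0.07, adjusted p = 0.000438). The reference is of C57BL/6 sequence, so H2 alleles of CT26 can be counted less completely in both agonist groups, which was not tested. B2m, the invariant light chain, went the other way (-0.35 ± 0.09, adjusted p = 0.0145). That call was lost under upper-quartile scaling, at a minimum count of 30, with 14 libraries and with CT26 thinned to the depth of MC38. It was also lost without CT26 control 2 or any of the MC38 libraries.

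The checkpoint ligand gene Cd274, which encodes PD-L1, was at 5.97, 5.91 and 6.29 CPM in the CT26 controls and 48, 47.6 and 50.5 with the agonist. The level in MC38 was 22.4 and 21.8 and then 65.4 and 61.4. The rise was 8.04-fold in CT26 against 2.86-fold in MC38 (1.49 ± 0.10, adjusted p = 7.62e-08), and the level with the agonist remained lower in CT26 (log2 ratio -0.38 ± 0.07, adjusted p = 5.04e-05). Cd47, an inhibitory signal to macrophages, rose more in MC38 (-0.55 ± 0.09, adjusted p = 0.000517). Over 12 tested checkpoint ligand genes 1 was higher in the difference and 1 lower, against 5.82% and 10.4% of all genes tested.

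**Figure D2:**
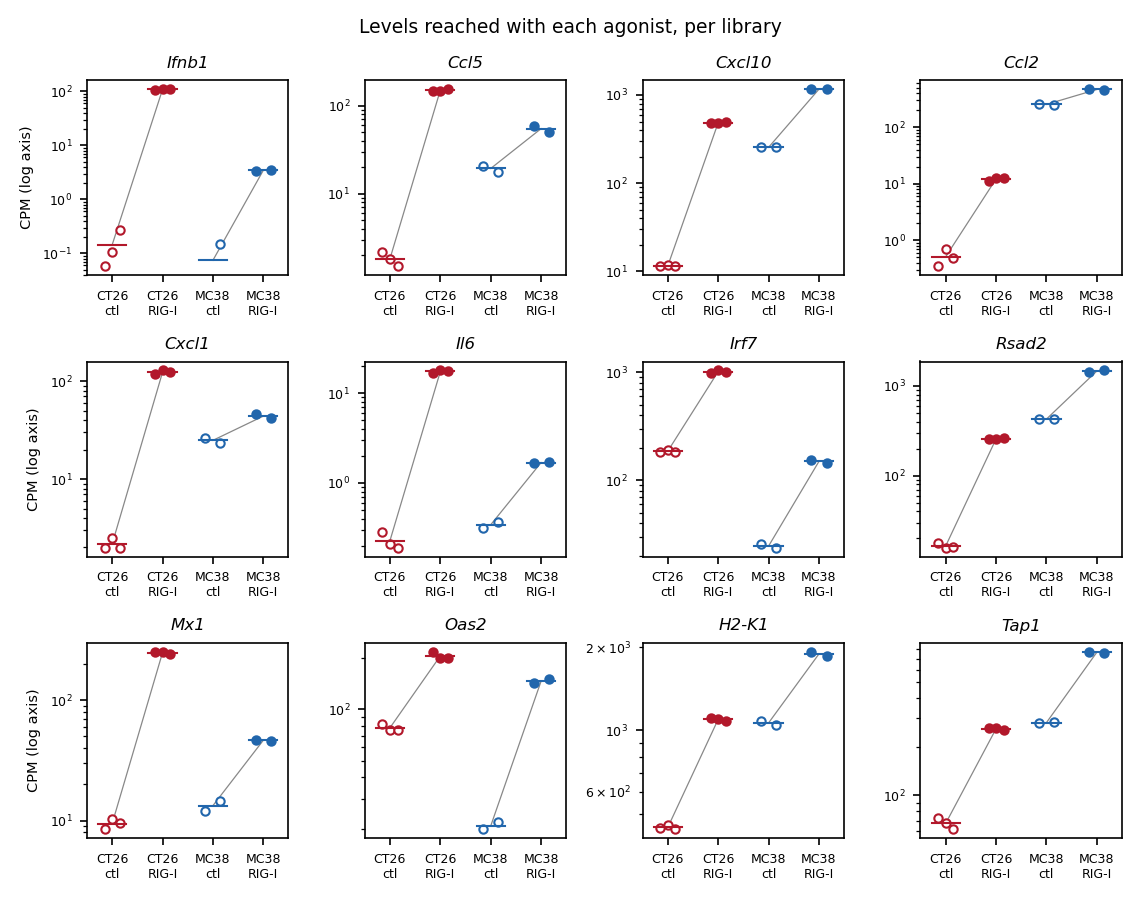
Level in CPM on a log axis for 12 pathway genes in each library of CT26 (red) and MC38 (blue) with control agonist (open) or RIG-I agonist (filled); bars are group means, and the MC38 control library at 0 for Ifnb1 is not drawn. Grey lines join the group means, and Ccl5, Cxcl1, Il6 and Mx1 change their order between the lines. Cxcl10, Ccl2, Rsad2, H2-K1 and Tap1 stay higher in MC38 despite the steeper rise in CT26.

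A larger effect in CT26 did not always give a higher level there. Among the 715 genes that rose in both lines, the level with the agonist was higher in CT26 for 350, lower for 272 and not called for 93. With the control agonist it was higher for 322, lower for 290 and not called for 103. Over all genes tested the level with the RIG-I agonist was higher in CT26 for 39.1% and lower for 38.1%. The counts here are to be read beside these shares. Of the 125 with a larger rise in CT26, 63 ended higher in CT26 and 48 ended lower. Of the 77 with a larger rise in MC38, 47 still ended higher in CT26. Rsad2, which encodes the antiviral enzyme viperin, was at 17.7, 15.7 and 16 CPM in the CT26 controls and 254, 253 and 263 with the agonist, and at 428 and 425 and then 1435 and 1487 in MC38. All CT26 libraries with the agonist lay below both MC38 controls, although the effect was larger by 2.19 ± 0.09 in CT26 (adjusted p = 7.02e-11).

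At the upper end of the level ratios among genes that rose in both lines were Ifi27l2a (log2 ratio 5.95), Gm4070 (5.46), Ifnb1, Phf11a (4.94), H2-T23 (4.92) and Phf11b (4.80). The interferon-inducible gene Ifi27l2a was at 358 ± 17.5 CPM in CT26 and 5.86 ± 0.58 in MC38. Several of these belong to families or predicted loci whose reads can be shared, or to the polymorphic H2 region. At the lower end were Lpl (-7.78), Tent5a (-7.15), Gdf15 (-6.91), Tlr2 (-5.74), Ccl2 and Cxcl9 (-4.88). Lpl, a lipase of triglyceride-rich lipoproteins, was at 0.8 ± 0.164 CPM in CT26 and 178 ± 5.37 in MC38, and its line gap was already present with the control agonist. Nearest to equal levels were Cldnd1, Mtf1, Nmi, Slc25a28, the RNA-editing enzyme gene Adar and the GTPase gene Irgm2. Adar reached 226, 228 and 231 CPM in CT26 and 222 and 229.8 in MC38, and Irgm2 193, 175 and 191 and 189.7 and 186.

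Beyond the pathway genes, the named genes with the largest differences on the side of CT26 included epithelial and metabolic genes that were almost silent in the CT26 controls. Krt16, a stress keratin, went from 1 count in the 3 CT26 controls together to 14.6, 14.1 and 13.9 CPM, a ratio of 1570 (exact 95% interval 281 to 61900), and in MC38 from 0.438 and 0.372 to 1.11 and 1.25. Acod1, which makes itaconate, went from 1 count to 14.2, 14.8 and 15.4 CPM, a ratio of 1630 (293 to 64600), and in MC38 from 0.939 and 0.819 to 4.36 and 4.72. Sprr1a, a cornified envelope gene, had a ratio of 586 (105 to 23200) in CT26 and reached 1.19 and 1.35 CPM in MC38. Each of the 3 had a called difference, at adjusted p = 2.74e-07, 6.36e-08 and 1.54e-06. Trpc1, a cation channel gene, went from 1 count in the CT26 controls to 0.529, 0.36 and 0.565 CPM and was at 12 and 10.2 and then 10.2 and 8.45 in MC38, where it was not called.

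Other genes at the extremes were near 0 in one line, so that the size of their difference rests on few counts. Ifi44l, an interferon-inducible gene, reached 209, 202 and 203 CPM in CT26 and had 3 counts in the MC38 controls and 0 with the agonist, which makes its level at least 2180-fold higher in CT26 against a floor of 3 counts over the group. At the lower extreme, Gm14288, Smpdl3b, Npcd and Egfl7 were at or below 0.185 CPM in every CT26 library with the agonist, and Rbpms, Fcna and Gm6904 were at 0 in MC38 control 2. Smpdl3b, for instance, was at 16.9 and 16.4 CPM in MC38 with the agonist and at 0 in CT26, at least 611-fold lower.

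Genes called in both lines with opposite signs numbered 256, or 1.64% of the genes tested, and the difference was called for each. Of these, 74 rose in CT26 and fell in MC38, or 0.473%, with median effects of 0.53 and -0.58 on the log2 scale. The other 182 fell in CT26 and rose in MC38, or 1.16%, with medians of -0.25 and 0.31. At 1 CPM or more in both lines there were 68 and 176 of 10874 genes, or 0.625% and 1.62%. With effects of at least 0.5 on the log2 scale in each line as well there were 26 and 4, or 0.239% and 0.0368%, a smaller part of the second direction than of the first. These 2 restrictions were chosen after the data were seen.

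The second direction depended more on scaling. Under TMM, DESeq2's and upper-quartile factors alike, 74 of the 74 and 72 of the 182 stayed opposite. Under each of the 19 alternatives 10 and 13 did. The first count was 113 without CT26 control 3, 43 without MC38 control 1, 36 without MC38 control 2 and 35 without MC38 RIG-I 1. The second was 334 without CT26 control 1, 83 without CT26 control 2, 121 without CT26 RIG-I 1, 49 without MC38 control 1, 66 without MC38 control 2, 88 without MC38 RIG-I 1 and 41 without MC38 RIG-I 2.

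Immediate early genes stood among those that rose in CT26 and fell in MC38. Of 28 genes of immediate early response and MAPK feedback, 5 were opposite in this direction and 1 in the other, and the difference was higher for 13 and lower for 3 with a median of 0.31 (7 and 1 with 14 libraries). Fos (chromosome 12, 85473890 to 85477273, GENCODE M21 on GRCm38), a subunit of the AP-1 transcription factor, was at 1.15, 1.61 and 1.32 CPM in the CT26 controls and 12.1, 12.9 and 13.1 with the agonist. In MC38 it was at 59.6 and 63.5 and then 28.1 and 29.2. The groups of each line did not overlap, the change was 3.21 in CT26 and -1.10 in MC38, and the difference was 4.31 ± 0.14 (adjusted p = 6.34e-12). Even after these opposite moves Fos remained higher in MC38 (log2 ratio -1.18 ± 0.09).

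Egr1, a zinc finger transcription factor of the same class, was at 71.5, 68 and 69.3 CPM in the CT26 controls and 400.1, 433 and 468 with the agonist, and at 38.6 and 38.5 and then 23.1 and 25.1 in MC38. Here CT26 was higher with either agonist, and the opposite moves widened the gap (3.31 ± 0.10, adjusted p = 3.24e-12). Jun (chromosome 4, 95049034 to 95052222), the partner of Fos in AP-1, was at 36.9 ± 1.28 CPM and then 87.9 ± 5.78 in CT26 (SD, n = 3 libraries), and at 229.9 and 234 and then 159 and 165 in MC38 (1.77 ± 0.08, adjusted p = 5.72e-10). Fosb (chromosome 7, 19302696 to 19310051), a further AP-1 subunit, rose from 6.91 ± 0.731 to 10.3 ± 1.33 CPM in CT26 and fell from 45.1 ± 0.178 to 16.9 ± 0.436 in MC38 (1.99 ± 0.15, adjusted p = 2.63e-07). Dusp1 (chromosome 17, 26505590 to 26562128), a phosphatase that switches off MAP kinases, was at 8.66, 8.22 and 7.9 CPM and then 30.7, 35.7 and 33.5 in CT26, and at 24.7 and 20.9 and then 17.2 and 16.2 in MC38 (2.47 ± 0.14, adjusted p = 4.48e-09). For Fos, Jun and Dusp1 the control level was higher in MC38, and for Dusp1 the order was reversed with the agonist.

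Fos, Fosb, Egr1 and Jun stayed opposite without any 1 of the 10 libraries, and Dusp1 without 8 of them. In the fit that also held E0771, with its wider spread, Egr1 stayed opposite and the other 4 did not, and the difference was still called there for Fos, Jun and Dusp1. Dusp4, a phosphatase of nuclear ERK, was the member that fell in CT26, from 86.3 ± 8.52 to 68.1 ± 2.38 CPM, and rose in MC38, from 54.3 ± 0.465 to 67.2 ± 0.0717 (-0.65 ± 0.10, adjusted p = 0.000554). Atf3, a stress-induced factor of the ATF family, rose in CT26 from 0.0365 to 1.07 CPM and was at 4.38 and 4.46 and then 6.74 and 8.14 in MC38, where it was not called (3.96 ± 0.56, adjusted p = 0.00018).

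Plat (chromosome 8, 22757727 to 22782844), the tissue-type plasminogen activator, was at 4.59, 4.4 and 5.58 CPM in the CT26 controls and 9.78, 9.24 and 9.19 with the agonist, and at 17.2 and 17.7 and then 6.11 and 7.16 in MC38. The lines thus crossed, and the opposite call held under all 19 alternatives (2.34 ± 0.17, adjusted p = 1.68e-07). Trpm2, a calcium-permeable channel opened by oxidative stress, was at 3.21, 4.08 and 3.75 and then 12.8, 13.2 and 12.8 CPM in CT26, and at 4.82 and 4.76 and then 3.01 and 3.06 in MC38 (2.46 ± 0.20, adjusted p = 3.9e-07). Unc13d, which primes secretory granules for release, rose from 9.13 ± 1.49 to 26.1 ± 4.09 CPM in CT26 and was at 3.19 and 2.46 and then 1.67 and 1.25 in MC38 (2.52 ± 0.33, adjusted p = 0.000295). Fras1, an extracellular matrix protein, was at 0.0287, 0.13 and 0.108 and then 1.56, 1.24 and 1.1 CPM in CT26 and at 3.94 and 4.17 and then 1.19 and 1.45 in MC38, so that the ratio of levels with the agonist was not called (log2 ratio -0.04, adjusted p = 0.926). Plekhg4, a putative guanine nucleotide exchange factor, rose from 1.22 to 3.98 CPM in CT26 and fell from 8.81 to 5.41 in MC38. The opposite calls of Trpm2 and Plekhg4 held without 6 of the 10 libraries in turn, that of Unc13d without 5 and that of Fras1 without 9.

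Histone genes moved with CT26. Hist2h2be, an H2B gene, was at 3.61, 4.42 and 4.59 CPM and then 17.4, 16.6 and 17 in CT26, and at 7.95 and 6.25 and then 3.89 and 4.56 in MC38 (2.75 ± 0.20, adjusted p = 1.2e-07). Of 25 replication-dependent histone genes in a list that does not hold Hist2h2be, 17 rose in CT26 and 0 in MC38, and the difference was higher for 9 and lower for 0 with a median of 2.13. Most of these were under 5 CPM, such as Hist1h2ac at 1.77, 1.67 and 1.87 CPM in CT26 with the agonist. Hist1h4a had 5 counts in the MC38 controls and 0 with the agonist, against 56 in CT26 with the agonist. Hist1h4c had 4 and then 2 in MC38, against 116. Such members can pass the filter on low counts through CT26 libraries alone. At the lower depth of MC38, the 0 called rises there do not show that these genes stayed level. Replication-dependent histone mRNAs usually lack poly(A) tails, and the libraries were made from poly(A) RNA, so their values depend on a fraction of the transcripts. In a list of DNA replication and mitosis genes 0 of 42 were higher in the difference and 3 lower, against 5.82% and 10.4% of all genes tested. With upper-quartile scaling 4 were higher and 0 lower, as its median moved from -0.07 to 0.04. The lower count was 12 without CT26 control 1, 1 without CT26 RIG-I 1 or CT26 RIG-I 3, and 0 without CT26 control 2 or any of the MC38 libraries, and the higher count was 3 without CT26 control 3.

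Mitochondrially encoded genes fell in MC38 and split in CT26. Of 13, 11 fell in MC38, and in CT26 3 rose and 4 fell; the difference was higher for 6 and lower for 0, with a median of 0.66. The cytochrome oxidase subunit genes mt-Co1, mt-Co2 and mt-Co3 were opposite. mt-Co2 was at 2047, 2087 and 1990.0 CPM in the CT26 controls and 3166, 3195 and 2641 with the agonist, and at 6001 and 5525 and then 4139 and 3781 in MC38 (1.10 ± 0.11, adjusted p = 7.04e-06). mt-Co3 had a difference of 1.14 ± 0.15 (adjusted p = 0.0006) and mt-Co1 of 0.88 ± 0.11 (adjusted p = 0.000114), whereas mt-Nd1, a complex I subunit, fell in both lines and more in MC38. The share of all counts from these genes was 4.79% and 5% in the MC38 controls and 3.01% and 3.2% with the agonist, and it was 2.44% to 2.88% and 2.85% to 3.19% in CT26. The part of this share in the result was not tested. With all 14 libraries fitted, no gene of the list was called in the difference or in either line (edgeR), and mt-Co1, mt-Co2 and mt-Co3 had adjusted p-values of 0.0571, 0.295 and 0.374 for the difference. Without CT26 control 3 the difference was higher for 11, and otherwise for 6 or 7 without 1 library.

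Genes of cholesterol synthesis fell in MC38 and differed less in CT26. Of 29 tested, 22 fell in MC38 and 10 in CT26, and the difference was higher for 12 and lower for 1 with a median of 0.23. Hmgcs1, Idi1 and Hsd17b7, all enzymes of the pathway, rose slightly in CT26 and fell in MC38. Hmgcs1 was at 125, 147 and 156 and then 153, 163 and 169.7 CPM in CT26, where the groups overlapped, and at 328 and 318 and then 242 and 243 in MC38, where they did not (0.60 ± 0.11, adjusted p = 0.00165). Hsd17b7 was at 16.2, 17.6 and 18 and then 21.8, 21.1 and 22.1 CPM in CT26, and at 80.3 and 81.8 and then 67.3 and 68.2 in MC38 (0.58 ± 0.09, adjusted p = 0.000491). Idi1 had a difference of 0.44 ± 0.07 (adjusted p = 0.000853). The higher count was 6 without MC38 control 2 and 7 without MC38 RIG-I 1, and 14 members fell in MC38 without MC38 control 2. With 14 libraries no difference was called in the list (edgeR) and 2 members fell in MC38, and the adjusted p-values of Hmgcs1, Hsd17b7 and Idi1 for the difference were 0.717, 0.696 and 0.835.

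Of the antiviral list only Ifitm1 was opposite: it was at 10.9, 14.5 and 13.5 and then 17.7, 16.4 and 17.4 CPM in CT26, and at 31.2 and 29.6 and then 22.4 and 23.3 in MC38 (0.81 ± 0.14, adjusted p = 0.00121). Tnfrsf10b, the death receptor for TRAIL and a p53 target, was at 31.7, 30.4 and 29.1 and then 33.6, 33.1 and 35.7 CPM in CT26, and at 87.5 and 88.2 and then 67.4 and 70.4 in MC38 (0.52 ± 0.09, adjusted p = 0.00121). Both opposite calls held without 6 of the 10 libraries in turn.

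In the other direction, Angptl6 (chromosome 9, 20873808 to 20879727), a secreted angiopoietin-like factor, was at 26.5, 26.9 and 30.8 CPM in the CT26 controls and 11.8, 13.9 and 12.2 with the agonist. MC38 had 3.88 and 4.17 and then 10.3 and 9.08. The groups of each line did not overlap, and the moves of -1.15 in CT26 and 1.26 in MC38 brought the lines close together (-2.41 ± 0.17, adjusted p = 1e-07). Hid1 (chromosome 11, 115347707 to 115367756), a Golgi-associated protein of secretory granule formation, was at 6.68, 6.3 and 6.39 and then 4.34, 4.92 and 4.7 CPM in CT26, and at 33 and 35.3 and then 73.8 and 69.6 in MC38, which widened a gap that was already there (-1.54 ± 0.12, adjusted p = 1.85e-07). Acot2 (chromosome 12, 83987861 to 83993873), a mitochondrial acyl-CoA thioesterase, was at 31.8, 28.6 and 30.6 and then 22.7, 22 and 20.9 CPM in CT26, and at 6.26 and 5.8 and then 12.3 and 12.4 in MC38 (-1.50 ± 0.13, adjusted p = 9.78e-07). These 3 stayed opposite under all 19 alternatives.

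Dhrs9, a dehydrogenase of retinoids and steroids, fell from 60.8 ± 3.93 to 34.5 ± 1.09 CPM in CT26 and was at 2.07 and 3.05 and then 3.65 and 4.05 in MC38 (-1.44 ± 0.19, adjusted p = 0.00011). Rps6ka2, a ribosomal S6 kinase of the MAPK pathway, was at 103, 84.3 and 80.1 and then 46.5, 45.9 and 46.8 CPM in CT26 and at 34.6 and 37.6 and then 48 and 45.4 in MC38, so that the ratio of levels with the agonist was not called (log2 ratio -0.01, adjusted p = 0.944). Aldh1l2, a mitochondrial enzyme of folate metabolism, was at 344, 293 and 327 and then 156, 157 and 154 CPM in CT26, and at 113 and 107 and then 127 and 134 in MC38 (-1.30 ± 0.09, adjusted p = 1.36e-07). For Rps6ka2 and Aldh1l2 the difference was called under each scaling, but they did not stay opposite under each of them. Gm20517, a predicted gene, was at 3.13, 3.69 and 4.13 and then 0.873, 1.42 and 1.78 CPM in CT26 and at 2.07 and 1.71 and then 4.52 and 4.72 in MC38 (-2.71 ± 0.37, adjusted p = 0.000136).

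**Figure D3:**
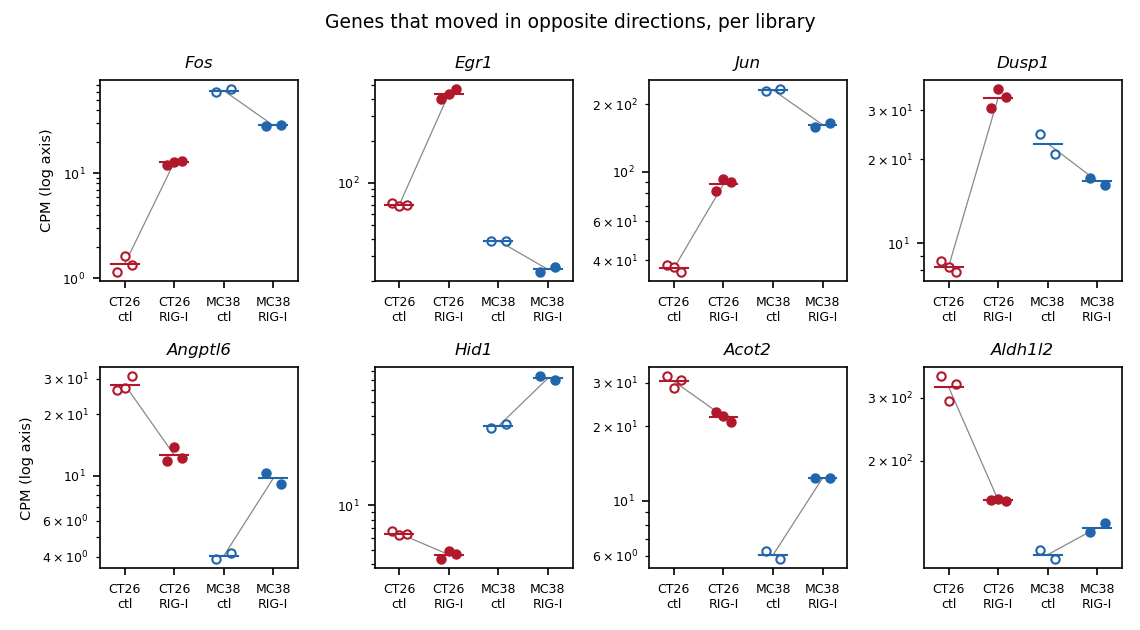
Level in CPM on a log axis for 8 genes called in opposite directions, in each library of CT26 (red) and MC38 (blue) with control agonist (open) or RIG-I agonist (filled); bars are group means and grey lines join them. Fos, Egr1, Jun and Dusp1 rise in CT26 and fall in MC38, and Angptl6, Hid1, Acot2 and Aldh1l2 do the reverse, with no overlap of the groups within a line.

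Genes of ER stress and of the integrated stress response, in which ATF4 raises amino acid synthesis and transport, formed the largest group of the listed genes in this direction. Of 36 tested identifiers the difference was lower in CT26 for 21 and higher for 2, against 10.4% and 5.82% of all genes tested. The median was -0.38, and 8 were opposite. In MC38 23 rose and 0 fell, and in CT26 14 rose and 15 fell. Wars, a tRNA synthetase that interferon also induces, was at 225, 192 and 182 CPM in the CT26 controls and 169.7, 174 and 169.7 with the agonist, and at 95.3 and 87 and then 142 and 138 in MC38 (-0.84 ± 0.11, adjusted p = 8.74e-05). Atf6, a membrane-bound sensor of unfolded proteins, was at 303, 293 and 311 and then 206, 209.8 and 205 CPM in CT26, and at 109 and 110.0 and then 129.7 and 135 in MC38 (-0.82 ± 0.07, adjusted p = 2.18e-06). Trib3, a pseudokinase target of ATF4, rose in both lines, 1.11-fold in CT26 and 2-fold in MC38 (-0.85 ± 0.08, adjusted p = 2.42e-06).

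The opposite members also included genes of serine and one-carbon metabolism. Phgdh, the first enzyme of serine synthesis, fell from 983 ± 103 to 824 ± 31.1 CPM in CT26 and rose from 570.2 ± 2.2 to 698 ± 11.9 in MC38 (-0.55 ± 0.10, adjusted p = 0.00205). Shmt2 and Mthfd2, which act on serine and folate in mitochondria, had differences of -0.56 ± 0.09 (adjusted p = 0.000797) and -0.52 ± 0.07 (adjusted p = 0.000217). Slc7a1, a transporter of cationic amino acids, fell from 339 ± 32.8 to 246 ± 2.51 CPM in CT26 and rose from 554 ± 12.8 to 658 ± 21 in MC38 (-0.71 ± 0.10, adjusted p = 0.00014). Atf5, a transcription factor of the response, and Aars, a tRNA synthetase, had differences of -0.66 ± 0.13 and -0.38 ± 0.08 (adjusted p = 0.00315 and 0.00459). The difference was called without each of the 10 libraries in turn for 7 of the 8, and the call of Aars was lost without MC38 control 1 or MC38 RIG-I 2. The opposite call itself was less stable: of the 8, Atf6 and Atf5 kept it under all 3 scalings, and the number of libraries whose removal left it intact ranged from 1 for Aars to 8 for Atf6. Over the scalings 16 to 21 list members were lower. Without MC38 RIG-I 2 12 were lower and without MC38 control 1 13, and these left 13 and 12 that rose in MC38. Without MC38 RIG-I 1 or MC38 control 2 13 and 14 rose there. With 14 libraries 6 were lower and 0 higher.

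Bcl2l1, the anti-apoptotic gene of Bcl-xL, fell from 138 ± 3.72 to 114 ± 3.36 CPM in CT26 and rose from 47.4 ± 0.105 to 57.8 ± 3.13 in MC38 (-0.56 ± 0.08, adjusted p = 0.000164). Odc1, the first enzyme of polyamine synthesis and a MYC target, fell from 1041 ± 41 to 848 ± 27.4 CPM in CT26 and rose from 428 ± 11.6 to 504 ± 2.63 in MC38 (-0.53 ± 0.08, adjusted p = 0.00032). Ndrg1, a stress gene induced by hypoxia, fell from 394 ± 51.6 to 268 ± 5.22 CPM in CT26 and rose from 75.8 ± 0.532 to 92.6 ± 2.78 in MC38 (-0.85 ± 0.12, adjusted p = 0.000219). Ndrg1 and Odc1 did not stay opposite under each scaling, although their differences kept the call.

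Other named opposite genes were close to 0 in one line. Gm43302, a predicted gene, rose from 20.2 ± 1.81 to 117 ± 7.27 CPM in CT26, and MC38 had 23 counts in the controls and 0 with the agonist, at least 8.31-fold lower. Abhd6, a lipase, was at 13.3, 14.9 and 16.1 and then 18.4, 16.1 and 17.9 CPM in CT26, and MC38 went from 6 counts to 0. Espn, an actin-bundling gene, fell from 28.5 ± 1.84 to 20.0 ± 0.941 CPM in MC38 and went from 0 to 9 counts in CT26. Scg5, Thrb and Akna moved the other way: Scg5 went from 0 to 6 counts in MC38, Thrb from 1 to 10 in MC38, and Akna from 10 to 2 in CT26. Htatip2 and Car6 fell in CT26 from 48.6 to 31.1 and from 39.6 to 19.8 CPM, and in MC38 stayed at or under about 1 CPM. Floors are 3 counts over a group of libraries, and the fitted differences of these genes are no bounds.

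Genes of glycolysis and hypoxia fell in CT26 more than in MC38. Of 29 tested identifiers, 22 fell and 1 rose in CT26, against 6 and 2 in MC38. The difference was lower for 20 and higher for 1, beside 10.4% and 5.82% of all genes tested, with a median of -0.46. Pdk1, which diverts pyruvate from mitochondria, was at 154, 131 and 161 CPM in the CT26 controls and 61.6, 69.3 and 60.8 with the agonist, and at 73.6 and 76 and then 56.2 and 58.4 in MC38 (-0.83 ± 0.12, adjusted p = 0.000302). Slc2a3, a glucose transporter, was the member that was higher, at 0.688, 0.989 and 0.459 and then 2.72, 3.48 and 2.47 CPM in CT26 and 0.876 and 0.893 and then 0.635 and 0.207 in MC38 (3.19 ± 0.60, adjusted p = 0.00196). Ero1l, an ER oxidase induced by hypoxia, had a difference of -0.80 ± 0.20 (adjusted p = 0.0308), and its call was lost without any 1 of the libraries other than CT26 control 2. Between 15 and 20 members were lower over the scalings, 13 without MC38 RIG-I 2 and 6 with 14 libraries.

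The counts of the other lists were small or moved with the scaling and with single libraries, beside 5.82% higher and 10.4% lower over all genes tested. Of 28 MYC and ribosome biogenesis genes 18 rose in MC38 and 9 in CT26, and the difference was lower for 10, with a median of -0.22, for 3 under upper-quartile scaling and for 1 with 14 libraries. The lower count was 18 without CT26 control 1, 6 without CT26 RIG-I 1, CT26 RIG-I 3, MC38 RIG-I 1 or MC38 control 2, and 3 without CT26 control 2, MC38 control 1 or MC38 RIG-I 2. Ncl, a nucleolar protein, had a difference of -0.43 ± 0.08 (adjusted p = 0.00143), and Srm, the spermidine synthase, of -0.54 ± 0.09 (adjusted p = 0.000788). Of 35 nuclear genes of oxidative phosphorylation 26 fell in CT26 and 0 in MC38, and the difference was lower for 7, but for 1 under upper-quartile scaling and for 0 with 14 libraries or with CT26 thinned (edgeR). The lower count was 21 without CT26 control 1, 4 without CT26 RIG-I 1 or CT26 RIG-I 3, and 0 to 2 without CT26 control 2 or any 1 of the MC38 libraries. Of 37 extracellular matrix genes 22 fell in CT26 and 16 in MC38, with 7 higher and 2 lower in the difference, 4 higher without MC38 control 1, 3 without MC38 RIG-I 2 and 1 with 14 libraries. Of 33 cell death genes 3 were higher in the difference and 1 lower, with 7 higher without CT26 control 3, 5 higher without MC38 RIG-I 2 and 5 lower without CT26 control 1. Casp4, the inflammatory caspase, rose 3.33-fold in CT26 and 2.19-fold in MC38 (0.60 ± 0.13, adjusted p = 0.00528). Of 23 p53 targets 2 were higher and 2 lower, with 5 lower without CT26 control 1 and 0 without MC38 control 1 or MC38 RIG-I 2. Btg2, an antiproliferative immediate early gene, rose in CT26 from 6.36 ± 0.888 to 24.5 ± 2.46 CPM and was at 6.82 and 5.58 and then 6.42 and 6.38 in MC38 (1.90 ± 0.20, adjusted p = 7.37e-06). Of 10 heat shock genes 2 were higher and 1 lower, and of 8 NK cell receptor ligand genes 0 were higher and 1 lower. No difference was called (edgeR) among the 4 tested MHC class II genes or the 5 colon epithelial, 6 leukocyte, 4 endothelial and 6 fibroblast markers tested, with 2, 1, 1, 1 and 2 at an unadjusted p under 0.05, respectively.

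**Figure D4:**
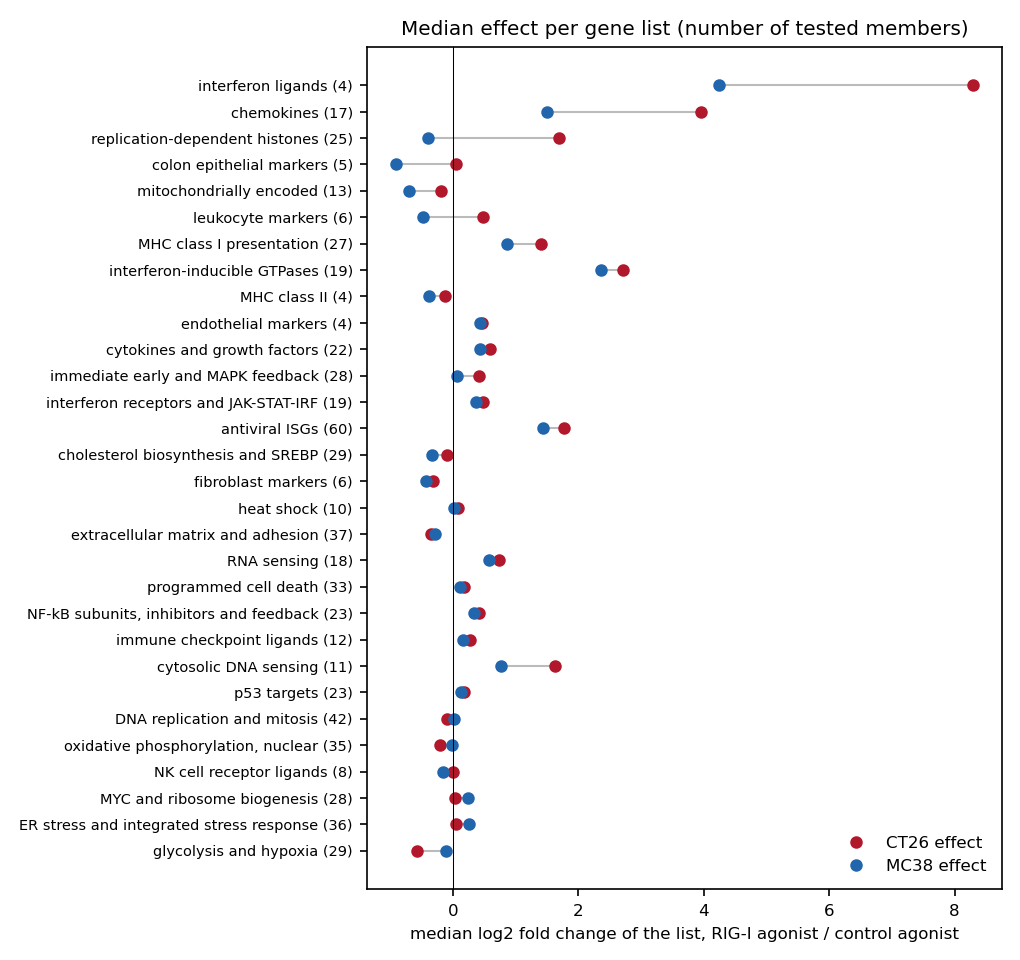
Median log2 fold change with the RIG-I agonist over the tested members of each of the 30 gene lists in CT26 (red) and MC38 (blue), ordered by the median difference; the number of tested members is in brackets. Interferon ligands, chemokines and histones have the widest gaps toward CT26. The stress response, MYC and glycolysis lists lie lower in CT26 than in MC38. The interferon ligand median rests on 4 of 20 listed genes, of which 1 had a called difference. Ifnb1 and Ifna4 were near 0 in the controls and passed the filter on low counts through libraries with the RIG-I agonist. Most of the listed histone genes were under 5 CPM, and some had few counts in MC38. Medians of marker lists rest on 4 to 6 genes.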

How the data were processed

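Poly(A) RNA of CT26 and MC38 cells was sequenced as stranded libraries, per the labels' protocols. The authors deposited estimated counts per gene, 1 table per line, with no normalization; Salmon, DESeq2 and GRCm38 stand in the submitters' processing notes, without their roles, and versions, trimming and annotation are not given in the sources used here. Columns were matched to samples by the column name stated in the labels (MC38 columns carry other numbers than the titles), and 0 columns were left without a sample. Of 34866 gene identifiers, 32644 matched GENCODE M21 exactly, 2008 without their version and 214 not at all. Estimated counts divide reads among similar genes, so single members of the Ifna, Gbp, Tgtp, Ifi200, H2, Phf11 and histone families are uncertain.

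The deposited estimated counts were rounded and fitted in 1 model of 4 groups over 10 libraries (R 4.3.3, edgeR 4.0.16: TMM, filterByExpr at a minimum count of 10, robust quasi-likelihood F tests, Benjamini-Hochberg adjustment over all genes tested, call at an adjusted p under 0.05). The difference of effects was a contrast of that fit, and the lines share 1 estimate of the spread. Levels were computed as CPM from TMM-scaled totals, with the SD over 3 (CT26) or 2 (MC38) libraries; log2 values carry their SE and a prior count of 0.125. The procedure was tested on simulated data with the same spread in both lines and with differences only in genes above 1 CPM in both. That test therefore covers neither an unequal spread of the lines nor genes near 0.

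The genes named are fixed pathway genes, the 12 largest differences in each direction among opposite genes at a mean of 1 CPM, the 10 largest called differences in each direction at 5 CPM in a group, the 6 highest, 6 lowest and 6 nearest level ratios among genes that rose in both lines, and up to 4 called members with every opposite member of each of 30 lists. Members and lists were chosen with earlier results of these data known. Alternatives were other scalings (DESeq2's and upper-quartile factors), filters, DESeq2 1.42.0, limma 3.58.1 (voom with the spread per line), all 14 libraries, CT26 thinned to the depth of MC38, a replicate block, each line alone, and each library left out. Replicate numbers were not taken to pair libraries. Some named genes are not reported here.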

Additional observations from a re-analysis of the deposited data

Results flagged for a closer look

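The contrast between agonists differed between the lines by a test of the difference itself for 910 genes on the side of CT26 and for 1626 on the other side. The 24 named opposite genes were among them by definition, since a called difference was required and the largest were taken.

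Of those that rose in CT26 and fell in MC38, the difference on the log2 scale was 10.01 for Gm43302, 5.80 for Abhd6, 5.39 for Fras1, 4.79 for Espn and 4.31 for Fos. It was 3.31 for Egr1, 2.75 for Hist2h2be, 2.52 for Unc13d and 2.47 for Dusp1. It was 2.46 for Trpm2, 2.41 for Plekhg4 and 2.34 for Plat. Gm43302, Abhd6 and Espn were under 1 CPM in one line. The call of Abhd6 was lost without any 1 of the 4 MC38 libraries, that of Espn with CT26 thinned to the depth of MC38, and that of Gm43302 in the fit of 14 libraries.

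Of those that fell in CT26 and rose in MC38, the difference was -6.39 for Scg5, -3.40 for Thrb, -2.78 for Akna and -2.71 for Gm20517. It was -2.41 for Angptl6, -2.28 for Htatip2, -2.25 for Car6 and -1.54 for Hid1. It was -1.50 for Acot2, -1.44 for Dhrs9, -1.31 for Rps6ka2 and -1.30 for Aldh1l2. Scg5, Thrb, Akna, Htatip2 and Car6 were under or near 1 CPM in one line. The call of the difference was lost for Thrb without MC38 control 1, MC38 control 2 or MC38 RIG-I 2, by DESeq2 and with 14 libraries. It was lost for Akna without CT26 control 2 or CT26 RIG-I 2, by DESeq2, with 14 libraries and after thinning, and Akna was opposite in 4 of 19 alternatives and without 1 of the 10 libraries. Scg5 lost the call without MC38 control 1 or MC38 RIG-I 2, Htatip2 without MC38 control 1, and Car6 and Gm20517 with 14 libraries.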

How the results depend on the processing

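No named gene with a called difference changed its sign under an alternative run, but the balance of counts turned: the difference was higher for 910 and lower for 1626 genes with TMM and for 1288 and 694 with upper-quartile scaling, and the opposite genes were 74 and 182, then 124 and 72 (CT26 higher first). Counts that moved by more than 1.5 times were as follows. A minimum count of 30 gave 819 genes lower in the difference and 123 and 93 opposite genes. With CT26 thinned to the depth of MC38, 749 were lower in the difference, 2475 fell in CT26 and 90 were in the second opposite direction. With the spread per line (limma voom), 1698 fell in MC38 and 275 were in the second direction. With each line fitted alone, 2338 rose and 2099 fell in MC38 and 146 were in the first direction. In the fit of all 14 libraries, whose spread includes that of E0771 (biological coefficient of variation 0.202), the difference was higher for 290 and lower for 267, 1520 rose and 1983 fell in CT26, 624 rose and 374 fell in MC38, and 15 and 26 were opposite. Of the 162 named genes, 66 lost the call of the difference in that fit. Effects of at least 0.5 log2 in both lines left 31 and 9 opposite genes. The share of called differences that were higher was 35.9% with TMM, 42.2% with DESeq2's factors, 65% with upper-quartile factors, 59.3% at a minimum count of 30, 56.6% after thinning and 52.1% in the fit of 14 libraries. The cause of these shifts was not tested, other than that the wider spread and the fewer tested genes belong to the construction of those fits.

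With 1 library left out at a time, the difference was higher for 582 to 1186 genes and lower for 464 to 2477, the level with the agonist was higher in CT26 for 5610 to 6508 and lower for 5291 to 6052, 1849 to 2764 rose and 2356 to 3961 fell in CT26, 754 to 2072 rose and 547 to 1483 fell in MC38, and 35 to 113 and 41 to 334 were opposite. Where MC38 was left with 1 library in a group, that library was assumed to vary like the other groups. Whether the replicate numbers pair the libraries could not be decided from correlations of their deviations. Same-numbered CT26 libraries correlated at 0.067, 0.127 and 0.191. Control 1 of CT26 correlated best with RIG-I 2, at 0.116, and each other CT26 control with the RIG-I library of its own number. The same-numbered MC38 pairs correlated at -0.037 and the others at 0.037. With 2 libraries in an MC38 group the deviations mirror each other, so these values differ only in sign. With a replicate block the difference was higher for 884 and lower for 1463, 74 and 157 genes were opposite, and none of these counts moved by more than 1.5 times; the call of Tgtp2 (adjusted p = 0.0918) and those of Npcd and Gm4070 were lost. The lower depth of MC38 limits what can be seen under about 0.2 CPM there.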

Other observations

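The opposite genes were also read in E0771, the mammary line that was no part of the comparison. Of the 74 genes that rose in CT26 and fell in MC38, 62 were tested in a fit of E0771 alone. Of these 62, 30 were higher with the RIG-I agonist, with a median log2 change of -0.005, 0 were called at an adjusted p under 0.05 (edgeR quasi-likelihood F test) and 7 had an unadjusted p under 0.05. Of the 182 genes of the other direction, 173 were tested, 128 were higher, the median was 0.117, 0 were called and 14 had an unadjusted p under 0.05. Shares over all genes tested in E0771 were not computed, so these counts cannot be told apart from the general tendency of that fit. The E0771 libraries varied more (biological coefficient of variation 0.202). Fos was at 2.96 and 0.164 CPM in the E0771 controls and at 2.06 and 0.953 with the agonist, and Egr1 at 0.623 and 1.23 and then 0.079 and 0.806. For both genes the libraries of the agonists overlapped.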
